A study of Solanum lycopersicum with 9 samples.

Results

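The plastid isoprenoid and carotenoid pathway of tomato (Solanum lycopersicum) was followed through a list of 33 gene identifiers, 29 of which were analysed among the 23195 genes of the count table. The list names 4 stages in pathway order. Of the listed identifiers, 7 belong to the methylerythritol phosphate (MEP) pathway, 5 to isopentenyl diphosphate isomerases (IDI) and geranylgeranyl diphosphate (GGPP) synthases, 17 to the steps from phytoene synthase to zeaxanthin epoxidase, and 4 to carotenoid cleavage dioxygenases. The numbers analysed were 7, 4, 16 and 2. Solyc11g011240, Solyc01g005940, Solyc01g090660 and Solyc08g066650 were not analysed here. The table carries no gene names, and 0 of its 23195 identifiers matched the reference gene table. Members are therefore given by identifier and by stage, stages follow the order of the list and were not checked against an annotation, and no single identifier is given an enzyme name.

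The MEP pathway makes the isoprene units used inside the plastid. IDI enzymes interconvert the isoprene isomers, and GGPP synthases join them into GGPP, which is also the source of the chlorophyll side chain, tocopherols and gibberellins. Phytoene synthase commits GGPP to carotenoids, desaturases and isomerases convert phytoene to lycopene, and cyclases and hydroxylases turn lycopene into lutein and zeaxanthin. Zeaxanthin epoxidase carries zeaxanthin on toward violaxanthin and the precursors of abscisic acid. Cleavage dioxygenases cut carotenoids into apocarotenoids. In leaves, carotenoids harvest light and dissipate excess light energy.

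Leaf RNA came from wild-type plants of cultivar M82 in 3 groups of 3 biological replicates. Control plants kept all their leaves uncovered. In the defoliation group only the measured leaf was left on the plant, and in the shading group foil covered every leaf but the youngest fully expanded one. Both treatments were applied 1 week after the first flowers opened, and the uncovered or remaining leaf was sampled together with matching control leaves. Labels of the treated libraries carry the number 48, with no unit, and those of the control libraries do not, so what it marks cannot be told apart from the treatments. Age at sampling was not given in the sources used here.

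Total counts were between 17617138 and 31012772 per library, with shading replicate 3 the shallowest (1657 genes at 0, against 334 to 711 in the others). Counts of the 29 members lay between 17 and 32649 in a library, well above the 3 counts taken as the floor, and all 29 passed the filter on low counts. Levels are in CPM (counts scaled to the effective library size), which do not allow for gene length, so levels are compared between libraries and not between genes. The labels name leaf mesophyll, which was not checked against marker genes because the identifiers carry no names. In such bulk leaf RNA, fewer cells of a type and less RNA per cell cannot be told apart.

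After defoliation, members of the pathway moved in both directions. Of the 29 members 4 rose (13.8%) and 8 fell (27.6%) relative to control leaves, and 17 did not pass, where 18.9% of all 20480 genes tested rose and 15.4% fell (edgeR quasi-likelihood test, Benjamini-Hochberg adjusted p below 0.05 over all genes). The share that rose was below that of all genes and the share that fell was above it, a difference that was not tested. The falls included 6 of the 16 members between phytoene synthase and zeaxanthin epoxidase, and 3 of the 4 rises were in the same stage. No IDI or GGPP synthase member passed. Log2 fold changes ran from -1.53 to 0.55 over the 29 members, with a median of -0.08 and a median absolute value of 0.33, against -0.02 and 0.44 over all genes. Members and all genes were not matched for level. The count without control replicate 3 was 1 higher and 3 lower, without control replicate 1 it was 0 and 8, without control replicate 2 it was 4 and 5, and without defoliation replicates 1, 2 and 3 it was 0 and 5, 4 and 5, and 4 and 4. In these settings 14.2% to 17% of all genes tested rose and 9.99% to 12.2% fell.

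At least 2-fold changes after defoliation were called for 2 members, Solyc06g074240.2 and Solyc03g007960.3, both lower, where 14.3% of all genes tested were called with changes of that size. The 3 defoliation libraries lay entirely above or below the 3 control libraries for 16 of the 29 members (55.2%), close to the 51.9% among all genes.

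Under shading some members were also higher and others lower than in control leaves. In all, 5 members rose (17.2%) and 4 fell (13.8%), against 16% and 14.2% of all genes tested (edgeR), so both shares were near those of the whole table. By stage, 2 MEP members rose and 1 fell, 2 IDI or GGPP synthase members rose, 1 member from phytoene synthase to zeaxanthin epoxidase rose and 2 fell, and 1 cleavage dioxygenase member fell. Differences between stages were not tested. The median log2 fold change over the 29 members was 0.05, with a range from -1.36 to 1.00. At least 2-fold changes were called for 2 members, Solyc01g067890.3 (higher) and Solyc06g074240.2 (lower), against 12.2% of all genes. Solyc01g067890.3 lay at the limit of 2-fold, with a log2 fold change of 1.0014, and between 0.7988 and 1.1625 in the alternatives. Group values did not overlap for 18 of the 29 members (62.1%), against 46.3% of all genes. The count was 3 higher and 3 lower without control replicate 1, 4 and 1 without control replicate 2 or control replicate 3, 2 and 2 without shading replicate 1, and 4 and 1 without shading replicate 2. In these settings 11.9% to 13.3% of all genes tested rose and 9.26% to 10.4% fell. DESeq2 called 8 members higher and 6 lower, against 18.2% and 15.8% of the 20424 genes it tested. Scaling mattered here, since TMM factors were 0.879 to 0.953 in the shading libraries and 1.029 to 1.087 in the others. With scaling to total counts, an alternative added after the values were seen, the median over all genes tested was -0.23 in place of -0.02 on the log2 scale, 3 members rose and 8 fell, and 10.9% of all genes rose and 24.8% fell. Changes under shading are therefore relative to the TMM scale.

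**Figure D1:**
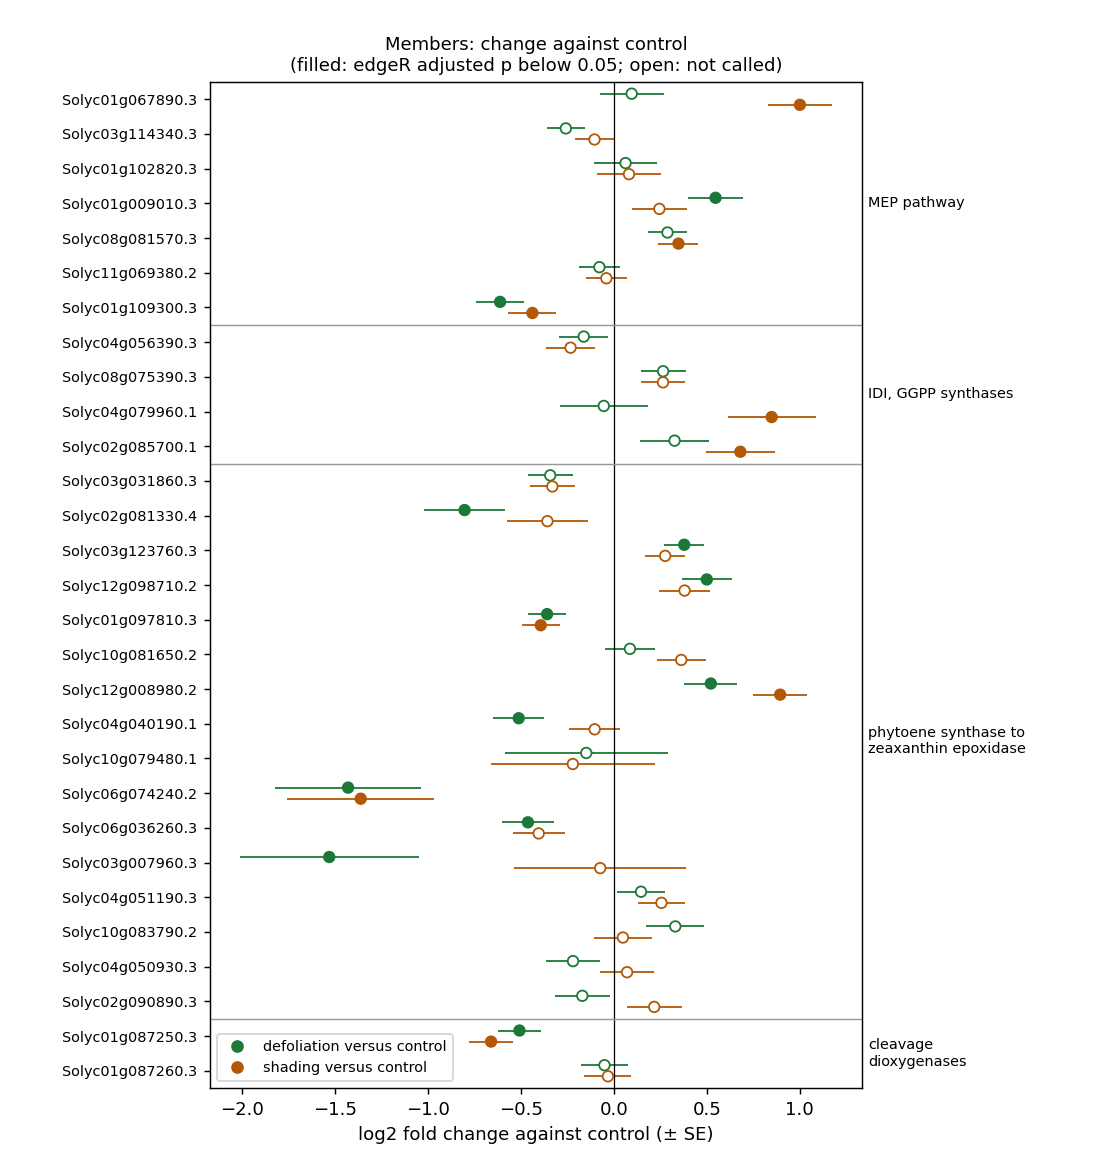
Log2 fold change against control (x axis, points with SE bars) of each of the 29 members (y axis, grouped by stage) after defoliation (green) and under shading (orange); filled points passed the edgeR test at an adjusted p below 0.05. Filled points lie on both sides of 0 in both treatments, and the longest error bars belong to Solyc10g079480.1, Solyc06g074240.2 and Solyc03g007960.3.

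Both comparisons share the control libraries, so a change of one member in the same direction in both is not independent evidence, and the values of each comparison are given side by side.

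The MEP pathway, which supplies the isoprene units, showed its largest change in Solyc01g067890.3 under shading. This member stood at 99.8, 124 and 98.5 CPM in libraries of control plants, at 127, 115 and 101 CPM in those of defoliated plants and at 165, 233 and 246 CPM in those of shaded plants. All 3 shading libraries were above all 6 others, which overlapped each other. Its level under shading was 2-fold that in control leaves (log2 fold change 1.00 ± 0.17 SE, n = 3, edgeR adjusted p = 0.00261), while the difference after defoliation was 0.10 ± 0.17 on the log2 scale (edgeR adjusted p = 0.701). The call under shading held in each of the 18 alternatives tried, with log2 fold changes from 0.80 to 1.16 and adjusted p from 2.04e-06 to 0.0138. For any comparison, 3 of the 18 left out a library of the group not compared. Those 3 bear on a call only through the shared filter, scaling and fit.

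Solyc01g109300.3, also of the MEP pathway, was lower in both treatments. It stood at 870, 906 and 928 CPM in libraries of control plants, 624, 626 and 520 CPM in those of defoliated plants and 689, 589 and 719 CPM in those of shaded plants. Each treated library was below every control library. The log2 fold change was -0.61 ± 0.13 (SE, n = 3, edgeR adjusted p = 0.00537) after defoliation, a call that held in all 18 alternatives (adjusted p from 2.38e-05 to 0.0233). Under shading the log2 fold change was -0.44 ± 0.13 (edgeR adjusted p = 0.0284). This second call was lost without any 1 control library (-0.46, -0.41 and -0.42), and on leaving out shading replicate 1 (-0.46) or 2 (-0.35).

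Smaller increases were called for 2 other MEP pathway members. Solyc01g009010.3 rose after defoliation from 44.7, 48.6 and 50.6 CPM to 81.1, 63.7 and 65.6 CPM (log2 fold change 0.55 ± 0.15 SE, n = 3, edgeR adjusted p = 0.0163), and its shading libraries, at 67.5, 53.7 and 49.3 CPM, reached from control levels to defoliation levels. The call was lost without control replicate 1 (0.50) or defoliation replicate 1 (0.43). Solyc08g081570.3 rose under shading from 54.2, 54.7 and 62.4 CPM to 74.4, 75.5 and 68.1 CPM (0.35 ± 0.11, edgeR adjusted p = 0.0336). Its defoliation libraries, at 71.4, 71.6 and 66.3 CPM, were also all above control without passing (0.29 ± 0.11, edgeR adjusted p = 0.0604). The shading call was lost without control replicates 1 (0.31) or 2 (0.35), on leaving out shading replicate 1 (0.33) or 2 (0.32), or with total-count scaling (0.15).

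The remaining 3 MEP members passed in neither comparison. Solyc11g069380.2 stood at 576 ± 17.2, 546 ± 21.7 and 561 ± 31.6 CPM in the control, defoliation and shading groups (SD, n = 3). Solyc03g114340.3 stood at 273 ± 13.6, 228 ± 3.92 and 254 ± 2.14 CPM, with no overlap between control and either treatment, but the differences did not pass (edgeR adjusted p = 0.0792 and 0.482). Solyc01g102820.3 stood at 44.1 ± 6.65, 46.1 ± 3.87 and 46.7 ± 10.5 CPM. The median log2 fold change of the 7 MEP members was 0.06 after defoliation and 0.08 under shading.

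**Figure D2:**
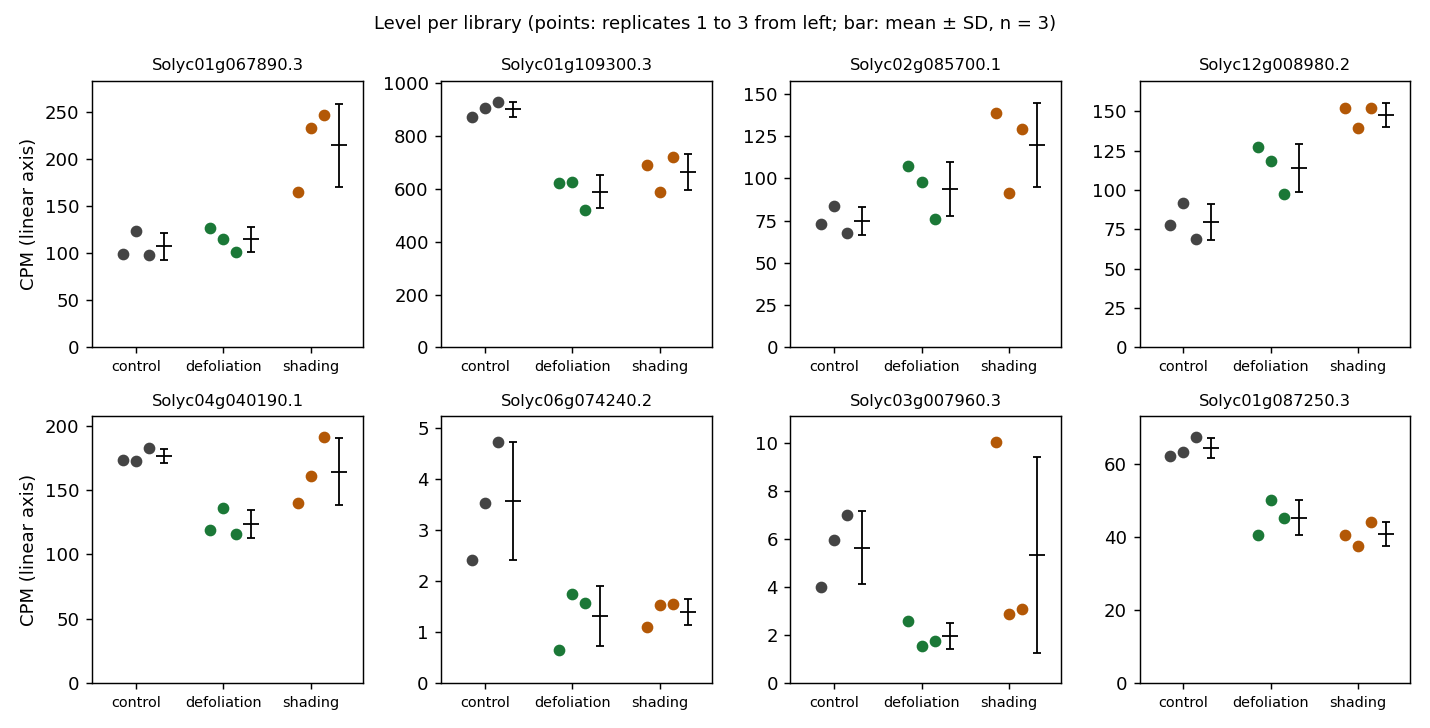
Level in CPM (y axes from 0, a separate scale for each gene) in every library of 8 called members; coloured points are replicates 1 to 3 of each group (x axis) from left to right and black bars the mean ± SD of 3 libraries. Solyc01g067890.3 is high in the shading libraries, at 165 to 246 CPM, while Solyc01g087250.3 is lower in all 6 treated libraries than in the 3 control libraries.

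Between the isoprene units and the carotenoids stand the IDI and GGPP synthase genes, where 2 of the 4 measured members rose under shading, against 16% of all genes, and none passed after defoliation, against 18.9% of all genes higher and 15.4% lower. With 4 members these counts are a description, and the difference between the treatments was not called by edgeR for any of them. Solyc04g079960.1 stood at 15.7, 26.4 and 30.7 CPM in libraries of control plants, 27.7, 22.7 and 19.8 CPM in those of defoliated plants and 45.4, 49.9 and 35.8 CPM in those of shaded plants. Its shading libraries were above all others (log2 fold change 0.85 ± 0.24 SE, n = 3, edgeR adjusted p = 0.023), a call lost without shading replicate 1 (0.82) or 2 (0.75). Control replicate 1 was the lowest library of this member, and without control replicate 1 the log2 fold change was 0.62.

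Solyc02g085700.1 stood at 72.7, 83.9 and 67.4 CPM in libraries of control plants, 107, 97.7 and 75.9 CPM in those of defoliated plants and 138, 91.4 and 129 CPM in those of shaded plants. Shading libraries lay above control libraries and overlapped defoliation libraries (0.68 ± 0.18, edgeR adjusted p = 0.0197). The call was lost without control replicates 1 (0.66) or 3 (0.61), on leaving out shading replicate 1 (0.56) or 3 (0.63), or with total-count scaling (0.47). The other 2 members did not pass. Solyc08g075390.3 stood at 20.0 ± 2.08, 24.1 ± 2.22 and 24.1 ± 0.641 CPM, and Solyc04g056390.3 at 89.0 ± 12.7, 79.6 ± 8.16 and 75.8 ± 1.70 CPM in the control, defoliation and shading groups (SD, n = 3). The median log2 fold change of the 4 members was 0.11 after defoliation and 0.47 under shading.

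From phytoene synthase to zeaxanthin epoxidase, the core of carotenoid synthesis, 3 of 16 members rose (18.8%) and 6 fell (37.5%) after defoliation, against 18.9% and 15.4% of all genes (edgeR). Under shading 1 rose (6.25%) and 2 fell (12.5%), against 16% and 14.2% of all genes. The difference in these counts between the treatments was not tested. The member that rose in both treatments, Solyc12g008980.2, had 77.7, 91.6 and 69.1 CPM in libraries of control plants, 127, 118 and 97.2 CPM in those of defoliated plants and 152, 139 and 152 CPM in those of shaded plants. The 3 groups did not overlap, with shading highest. The log2 fold change was 0.90 ± 0.14 under shading (SE, n = 3, edgeR adjusted p = 0.00179), with a range of 0.69 to 1.04 and adjusted p of at most 0.00961 over 18 alternatives. After defoliation it was 0.52 ± 0.14 (edgeR adjusted p = 0.0183), a call lost without control replicate 1 (0.51), control replicate 3 (0.43) or defoliation replicate 1 (0.44).

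A further 2 members of this stage rose after defoliation. Solyc03g123760.3 went from 124, 141 and 128 CPM to 176, 165 and 171 CPM (log2 fold change 0.38 ± 0.11 SE, n = 3, edgeR adjusted p = 0.0202). Solyc12g098710.2 went from 39.7, 46.2 and 41.2 CPM to 65.8, 55.7 and 58.3 CPM (0.50 ± 0.14, edgeR adjusted p = 0.0174). Under shading both were above control in every library, at 159 ± 5.29 and 55.1 ± 8.74 CPM, but did not pass (edgeR adjusted p = 0.0742 and 0.0573). For Solyc03g123760.3 the defoliation call was lost without control replicate 1 (0.34) or 3 (0.36) or defoliation replicate 1 (0.36), and for Solyc12g098710.2 without the same libraries (0.46, 0.48 and 0.43).

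Among the falls, Solyc02g081330.4 and Solyc04g040190.1 were low after defoliation while their shading libraries spread widely. Solyc02g081330.4 stood at 263, 295 and 363 CPM in libraries of control plants, 182, 197 and 149 CPM in those of defoliated plants and 173, 232 and 315 CPM in those of shaded plants. Defoliation libraries were all below control (log2 fold change -0.80 ± 0.22 SE, n = 3, edgeR adjusted p = 0.0174), and shading replicate 3 was within the control range (-0.36 ± 0.22, edgeR adjusted p = 0.239). The defoliation call was lost without control replicate 3 (-0.66) or defoliation replicate 3 (-0.70).

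Solyc04g040190.1 stood at 173, 173 and 182 CPM in libraries of control plants, 119, 136 and 116 CPM in those of defoliated plants and 140, 161 and 192 CPM in those of shaded plants. After defoliation it fell (log2 fold change -0.51 ± 0.14 SE, n = 3, edgeR adjusted p = 0.0159), and shading libraries reached from below to above the control range (-0.10 ± 0.14, edgeR adjusted p = 0.6). Without defoliation replicate 1 (-0.48) or 3 (-0.47) the call was lost.

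Solyc01g097810.3 and Solyc06g036260.3 were lower in all treated libraries than in any control library. The first stood at 372, 353 and 364 CPM in libraries of control plants, 278, 287 and 284 CPM in those of defoliated plants and 274, 268 and 286 CPM in those of shaded plants. Its log2 fold changes were -0.36 ± 0.10 and -0.39 ± 0.10 (SE, n = 3, edgeR adjusted p = 0.0226 and 0.0174). The defoliation call of Solyc01g097810.3 was lost without any 1 control library (-0.34, -0.38 and -0.36) or without defoliation replicate 1 (-0.34) or 2 (-0.37), while the call under shading was lost without any 1 control library (-0.37, -0.39 and -0.39) or shading replicate 2 (-0.37).

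Solyc06g036260.3 stood at 379, 462 and 452 CPM in libraries of control plants, 296, 324 and 318 CPM in those of defoliated plants and 285, 316 and 376 CPM in those of shaded plants, where shading replicate 3 came close to the lowest control. After defoliation it fell (log2 fold change -0.46 ± 0.14 SE, n = 3, edgeR adjusted p = 0.0276) and narrowly missed the threshold under shading (-0.40 ± 0.14, edgeR adjusted p = 0.0509). The defoliation call was lost without control replicate 2 (-0.41) or 3 (-0.43) or without any 1 defoliation library (-0.42, -0.49 and -0.47).

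The largest falls after defoliation were in 2 members with few reads. Solyc06g074240.2 had 67, 92 and 137 counts in the control libraries, 17, 56 and 49 after defoliation and 28, 43 and 24 under shading, or 2.41, 3.53 and 4.72 CPM, 0.634, 1.74 and 1.56 CPM, and 1.10, 1.52 and 1.55 CPM. All treated libraries were below all controls. The log2 fold changes were -1.43 ± 0.39 after defoliation and -1.36 ± 0.40 under shading (SE, n = 3, edgeR adjusted p = 0.0182 and 0.0268). Without control replicate 3, the highest library, they were -1.17 and -1.10 and both calls were lost. The shading call was also lost without control replicate 2 (-1.33) or any 1 shading library (-1.21, -1.44 and -1.44).

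The other, Solyc03g007960.3, had 111, 155 and 203 counts in the control libraries, 69, 50 and 55 after defoliation and 257, 81 and 48 under shading, or 3.99, 5.95 and 7 CPM, 2.58, 1.55 and 1.75 CPM, and 10.1, 2.86 and 3.10 CPM. Defoliation libraries were all below control (log2 fold change -1.53 ± 0.48 SE, n = 3, edgeR adjusted p = 0.0346). The shading libraries split, with replicate 1 above every control library and replicates 2 and 3 below them (-0.07 ± 0.46, edgeR adjusted p = 0.923). The defoliation call was lost without control replicates 2 (-1.49) or 3 (-1.35), or on leaving out defoliation replicate 2 (-1.39) or 3 (-1.46).

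The other 7 members of this stage passed in neither comparison. Solyc03g031860.3 was close to the threshold in both, at 278 ± 34.1, 220 ± 6 and 221 ± 11.5 CPM (SD, n = 3; edgeR adjusted p = 0.0523 and 0.0644), and its treated libraries were all below control. Solyc10g081650.2 was above control in every shading library, at 115 ± 2.63, 122 ± 13.4 and 147 ± 19.5 CPM (edgeR adjusted p = 0.646 and 0.0623). Of these 7, Solyc10g079480.1 varied most, with 29.0, 32.8 and 38.8 CPM in libraries of control plants, 24.3, 34 and 32.7 CPM in those of defoliated plants and 9.78, 31.6 and 45.5 CPM in those of shaded plants, so that shading held both its lowest and its highest library. Solyc04g050930.3 stood at 226 ± 22.0, 194 ± 25.1 and 237 ± 31.3 CPM, and Solyc02g090890.3 at 988 ± 25.2, 879 ± 83.0 and 1149 ± 203 CPM. Solyc04g051190.3 (106 ± 7.63, 118 ± 12.7 and 127 ± 12.1 CPM) and Solyc10g083790.2 (7.65 ± 0.522, 9.63 ± 1.67 and 7.92 ± 0.130 CPM) differed by log2 fold changes of at most 0.33. The median log2 fold change of the 16 members was -0.19 after defoliation and -0.01 under shading.

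**Figure D3:**
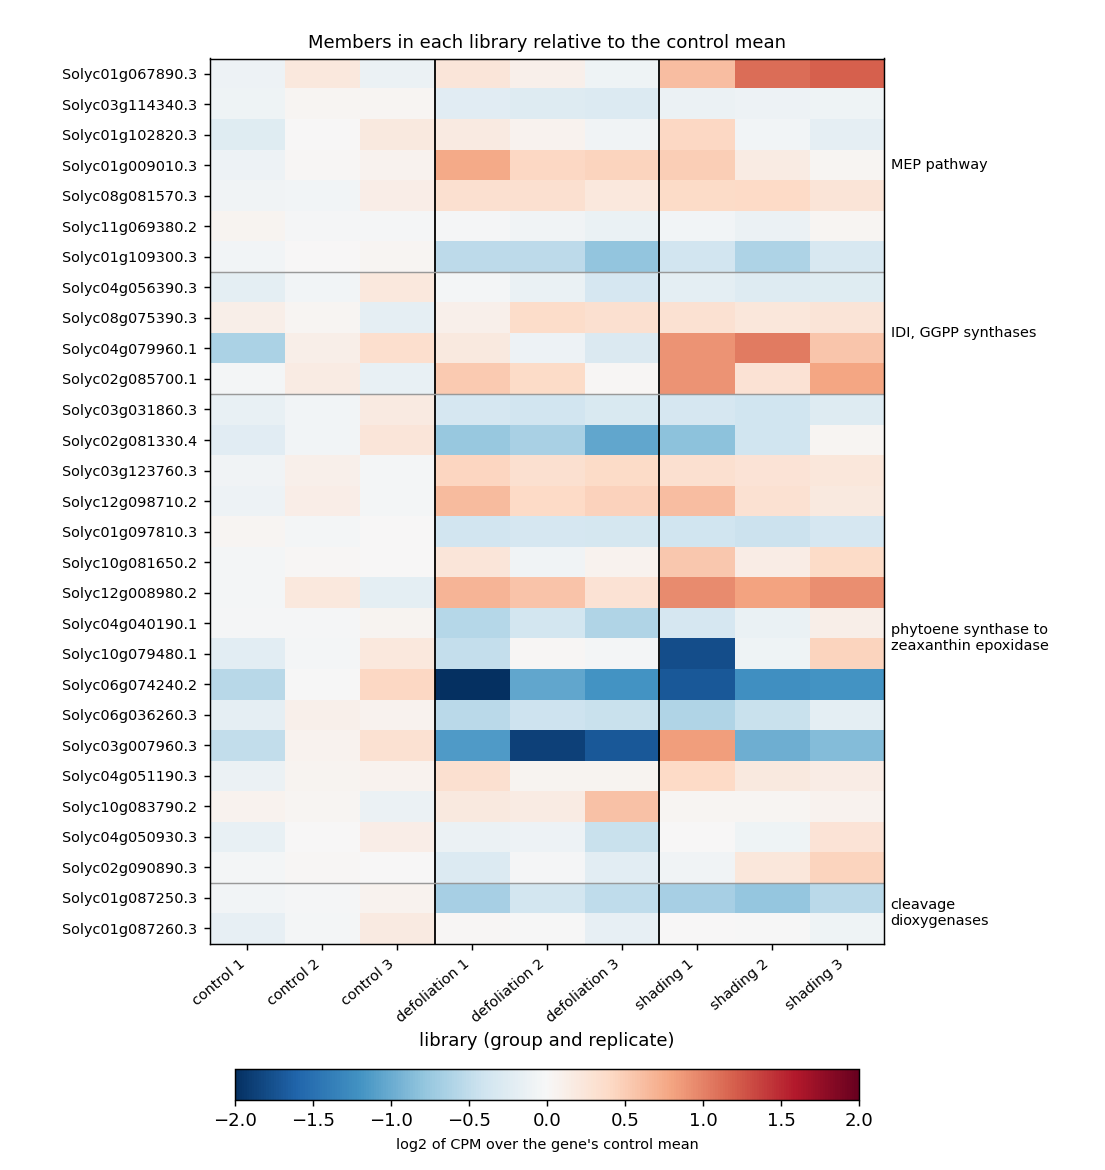
Log2 of CPM over the gene's mean in control leaves, by library (x axis) and member (y axis, grouped by stage); red is above and blue below the control mean, and the colour scale stops at -2 and 2. Solyc12g008980.2 is red in all 6 treated libraries, and shading replicate 1 stands apart from the other shading libraries for Solyc10g079480.1 and Solyc03g007960.3.

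Of the carotenoid cleavage dioxygenase stage, 2 members were measured and 1 of them fell in both treatments. Of all genes tested, 15.4% fell after defoliation and 14.2% under shading, and the share that fell in both was not computed. With 2 members this count is a description. Solyc01g087250.3 stood at 62.4, 63.5 and 67.5 CPM in libraries of control plants, 40.5, 50.2 and 45.4 CPM in those of defoliated plants and 40.7, 37.6 and 44.2 CPM in those of shaded plants. Every treated library was below every control library. The log2 fold changes were -0.51 ± 0.12 after defoliation and -0.66 ± 0.12 under shading (SE, n = 3, edgeR adjusted p = 0.00766 and 0.00274). Both calls held in all 18 alternatives, with log2 fold changes from -0.58 to -0.43 and from -0.87 to -0.60 and adjusted p of at most 0.0355 and 0.0143. Solyc01g087260.3, in the next row of the table, stood at 825 ± 102, 797 ± 51.8 and 807 ± 30.2 CPM and did not pass (edgeR adjusted p = 0.792 and 0.878). If these neighbours are near-identical copies, RSEM would divide shared reads between them by estimation, which was not checked here.

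Ratios of 2 members within a library do not depend on scaling between libraries. They were taken for pairs chosen after the values were seen and are given without a test. Counts of Solyc01g087250.3 per count of Solyc01g087260.3 were 0.0846, 0.0793 and 0.0721 in control leaves, 0.0485, 0.0613 and 0.0615 after defoliation and 0.0490, 0.0460 and 0.0571 under shading, so both treatments lay below control. Counts of Solyc12g008980.2 per count of Solyc04g040190.1 were 0.448, 0.530 and 0.379 in control leaves, 1.07, 0.869 and 0.837 after defoliation and 1.09, 0.865 and 0.793 under shading. This ratio averaged 0.452 ± 0.0756 in control leaves, 0.925 ± 0.125 after defoliation and 0.915 ± 0.153 under shading (SD, n = 3), and neither treatment overlapped control. After defoliation this separation restates the single members, since Solyc12g008980.2 was above and Solyc04g040190.1 below control in every library.

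**Figure D4:**
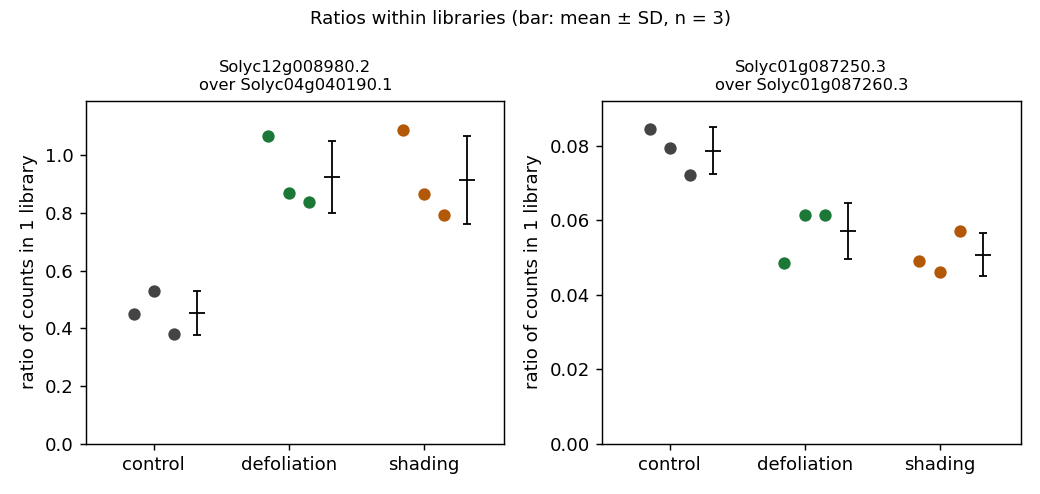
Ratio of the counts of 2 members in the same library (y axes from 0) by group (x axis); points are libraries and black bars the mean ± SD of 3. Solyc12g008980.2 over Solyc04g040190.1 is higher, and Solyc01g087250.3 over Solyc01g087260.3 lower, in every treated library than in every control library. The pairs were chosen after the values were seen, and the ratios were not tested.

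Summed over the 29 members, the pathway took 6397 ± 334 CPM in libraries of control plants, 5543 ± 273 CPM in those of defoliated plants and 6276 ± 420 CPM in those of shaded plants (SD, n = 3). As a plain share of all counts in the table, without TMM factors, the means were 0.672%, 0.577% and 0.572%. These sums are set by the members with most reads and were not tested. All 3 defoliation libraries (5664, 5735 and 5230 CPM) were below all 3 control libraries (6042, 6447 and 6704 CPM), and shading libraries (6002, 6067 and 6759 CPM) overlapped them. As plain shares, shading libraries (0.545%, 0.578% and 0.594%) were also all below control libraries (0.656%, 0.666% and 0.695%). By stage, the MEP members summed to 2008 ± 41.4, 1666 ± 108 and 1872 ± 96.4 CPM, and the IDI and GGPP synthase members to 208 ± 17.1, 221 ± 26.7 and 263 ± 23.6 CPM in the control, defoliation and shading groups. The members from phytoene synthase to zeaxanthin epoxidase summed to 3293 ± 180, 2815 ± 118 and 3293 ± 372 CPM, and the cleavage dioxygenase members to 889 ± 105, 842 ± 51.2 and 848 ± 27.7 CPM.

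**Figure D5:**
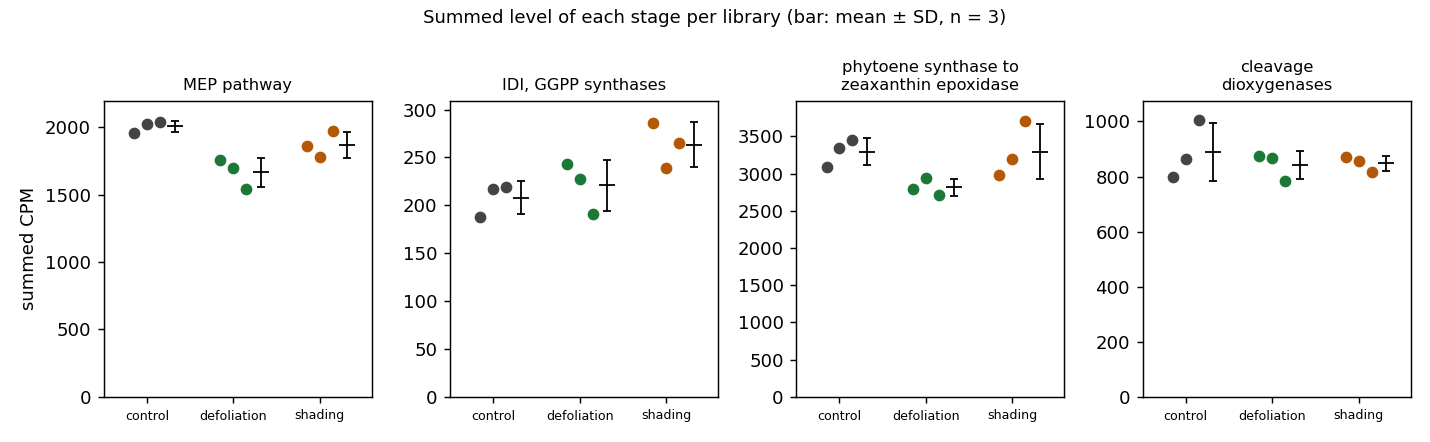
Summed CPM of the measured members of each stage (y axes from 0, a separate scale for each stage) by group (x axis); points are replicates 1 to 3 from left to right and black bars the mean ± SD of 3 libraries. Defoliation libraries lie below control in the sums of the MEP members and of the members from phytoene synthase to zeaxanthin epoxidase. The lower MEP sum lies mostly in 1 member, Solyc01g109300.3. Shading libraries lie above control, on the TMM scale, for the IDI and GGPP synthase members.

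Set directly against defoliation, shading gave higher values for 20 of the 29 members (10 with total-count scaling), but edgeR called 0 of the 29, against 0.0146% (3) of all genes tested. At an unadjusted edgeR p below 0.05 there were 6 of the 29 members, against 16.6% of all genes. With limma-voom 0 of the 29 were called, against 3 of 20480 genes, and DESeq2 called 3 of the 29, against 5.01% of all genes it tested. Shading and defoliation libraries did not overlap for 9 members (31%), 7 of them higher under shading, against 21.8% of all genes. The median log2 fold change of shading over defoliation was 0.06 over the 29 members and -0.03 over all genes. A member called in 1 treatment alone is thus not shown by edgeR to differ between the treatments.

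The 3 members that DESeq2 called were all higher under shading. Solyc01g067890.3 differed by a log2 fold change of 0.92 ± 0.19 (SE, n = 3, DESeq2 adjusted p = 0.000387), where edgeR gave 0.90 ± 0.17 (adjusted p = 0.0941). Solyc04g079960.1 differed by 0.92 ± 0.25 (DESeq2 adjusted p = 0.0131), where edgeR gave 0.90 ± 0.24 (adjusted p = 0.134). Solyc03g007960.3 differed by 1.46 ± 0.47 (DESeq2 adjusted p = 0.0436). Without shading replicate 1 its edgeR log2 fold change was 0.60 in place of 1.46 (edgeR adjusted p = 0.333 and 0.186). DESeq2 was not run without that library. Also with an unadjusted edgeR p below 0.05 were Solyc12g008980.2 (0.37 ± 0.14, adjusted p = 0.234), Solyc04g040190.1 (0.41 ± 0.14, adjusted p = 0.183) and Solyc02g090890.3 (0.39 ± 0.15, adjusted p = 0.232).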

How the data were processed

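Per the submitters' processing notes, the authors used Trim Galore, STAR, RSEM and DESeq2. Their versions, the build and the gene models were not stated in the labels or the table. The deposited values are estimated counts per gene from RSEM, and they were rounded to whole numbers before use. Per the labels' protocols, the TruSeq RNA kit used keeps no strand information, so overlapping antisense genes cannot be told apart.

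Genes were kept by filterByExpr, leaving 20480 of 23195 (88.3%). Groups were compared mainly by edgeR 4.0.16 (R 4.3.3) with its robust quasi-likelihood F-test, TMM scaling, 1 coefficient per group and all 9 libraries in one fit. P-values were adjusted by Benjamini-Hochberg over all genes tested, and genes below 0.05 were called. The SE is the log2 fold change divided by the square root of F.

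Alternatives were limma-voom (limma 3.58.1), DESeq2 1.42.0, upper-quartile or RLE scaling, no filter, at least 1 CPM in 3 libraries, only the compared groups, the replicate number as a block, leaving out each library, and total-count scaling, which was added after the values were seen. The members and lists were chosen with earlier results of these data known. The rule for named genes gave values in every library to called members with no overlap and at least 2-fold changes, or the lowest adjusted p of a stage. All other called members were added after their values were seen. Lists of related and marker genes, and likeness among members across the grouped libraries, were not used.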

Additional observations from a re-analysis of the deposited data

How the results depend on the processing

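None of the 24 called log2 fold changes followed (21 by edgeR against control, 3 by DESeq2 in the direct comparison) turned its direction under any of the 18 alternatives. For defoliation against control, leaving out 1 control or defoliation library in turn gave between 4 and 9 members called. Of these, 0 to 4 were higher and 3 to 8 lower. Leaving out a shading library, which is not in this comparison, left 12. For shading against control it gave between 4 and 9, with 2 to 5 higher and 1 to 4 lower. Each other alternative stayed within 1.5 times of the main counts, with 2 exceptions. Total-count scaling under shading gave 3 members higher and 8 lower. DESeq2 called 14 members under shading, 8 of them higher, and 3 in the direct comparison. Leaving out a library also lowers the number of samples, so a lost call is partly built into that alternative. Calls for all genes fell as well. Without control replicate 3, 15.1% of genes rose and 10.9% fell after defoliation. The calls held in every alternative were those of Solyc01g067890.3 and Solyc12g008980.2 under shading, Solyc01g109300.3 after defoliation and Solyc01g087250.3 in both. For each call, 3 of the 18 alternatives left out a library of the group not compared and could hardly change it. With the replicate number as a block, 10 members were called after defoliation, 7 under shading and 0 in the direct comparison. The calls not made with the block were those of Solyc08g081570.3 (log2 fold change 0.35, edgeR adjusted p = 0.0739) and Solyc01g109300.3 (-0.44, 0.0658) under shading, and of Solyc03g123760.3 (0.38, 0.0508) and Solyc01g097810.3 (-0.36, 0.059) after defoliation. Deviations from group means across genes gave r from -0.19 to 0.14 over the 9 pairs of samples with the same number. The other pairs ran from -0.15 to 0.19. The 2 same-number pairs above 0.1 were defoliation with shading, replicates 1 (0.14) and 2 (0.14). Correlations this weak, with 3 libraries per group, cannot show whether the numbers pair the samples. With upper-quartile scaling the median log2 fold change of the 2 cleavage dioxygenase members between shading and defoliation was -0.0195 in place of -0.067. The median of all genes tested moved as well, to 0.0149 in place of -0.0334, and the cause was not tested. Total-count scaling moved the medians of shading against control to -0.1183 (MEP), 0.2648 (IDI and GGPP synthase), -0.2154 (phytoene synthase to zeaxanthin epoxidase) and -0.5492 (cleavage dioxygenases). Against defoliation they were -0.1275, -0.0149, -0.099 and -0.2566, of which the first 3 were above 0 with TMM. The median of all genes moved by a like amount, to -0.2254 and -0.2212. Depth limits Solyc06g074240.2 most, with as few as 17 counts in a library.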

Other observations

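The biological coefficient of variation that edgeR fitted had a median of 0.14 over the 29 members and 0.192 over all genes tested. Members and all genes were not matched for level, so the difference is a description. Among the members the coefficient was highest for Solyc03g007960.3 (0.403), Solyc10g079480.1 (0.376) and Solyc06g074240.2 (0.331). In shading replicate 1 the first of these had 10.1 CPM, against 2.86 and 3.10 CPM in the other shading libraries, and Solyc10g079480.1 had 9.78 CPM, against 31.6 and 45.5 CPM. Within the group these 2 members of the stage from phytoene synthase to zeaxanthin epoxidase thus departed in opposite directions in the same library. Counts of Solyc02g081330.4 per count of Solyc03g031860.3, both of that stage, were 1.05, 1.10 and 1.15 in control leaves, 0.821, 0.925 and 0.666 after defoliation and 0.783, 1.10 and 1.35 under shading. The ratio was below control in each defoliation library and spread to both sides of control under shading. This pair was also chosen after the values were seen, and its ratio was not tested.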
